A study of Mus musculus with 21 samples.

Results

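The genes described here encode 10 enzymes: 8 of glycolysis (*Hk1*, *Pfkm*, *Aldoa*, *Aldoc*, *Gapdh*, *Pgk1*, *Eno1* and *Eno2*) and 2 subunits of lactate dehydrogenase (*Ldha* and *Ldhb*). They form a fixed list of names, and all 10 were found among the 52550 genes of the count table. RNA of spiral ganglion neurons (SGNs), the neurons that carry sound signals from the cochlea to the brainstem, was sequenced at 5 ages, which were E15.5 and P1, then P8, P14 and finally P30. HCs (hair cells, taken at P12) and glial cells of the cochlea (taken at P8) were sequenced next to them. Each of the 7 groups had 3 replicates, which gives 15 SGN libraries and 21 libraries in all. All mice were C57BL/6 and carried tdTomato behind a stop cassette in the Rosa26 locus (Ai9, 1 copy), so that Cre decided which cells were red. SGNs came from *ShhCre/+* mice without tamoxifen. HCs came from *Atoh1-CreER+* mice given tamoxifen at P0 and P1, and were a mixture of cochlear and vestibular HCs. Glial cells came from *vGlut3-iCreER/+* mice given tamoxifen at P2 and P3. That driver also marks inner hair cells, so only tissue of the SGN area was kept. Libraries were made from 69 to 195 picked SGNs, 86 to 125 picked glial cells or 1200 HCs. The labels call the HCs manually picked and the study's methods call them sorted. Neither source says whether replicates were separate litters, so p-values here measure the spread between libraries, which may in part be technical.

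Glycolysis turns glucose into pyruvate in the cytosol and yields ATP and NADH without oxygen. Hexokinase traps glucose in the cell, phosphofructokinase is the main point of control, aldolase splits the sugar, and the steps from *Gapdh* onward extract energy. Lactate dehydrogenase then interconverts pyruvate and lactate, and the mix of its A and B subunits shifts between tissues. Several steps have more than 1 gene. *Aldoc* and *Eno2* are the aldolase and enolase known from the brain, *Eno2* being the neuron-specific enolase used as a neuronal marker, while *Aldoa* and *Eno1* are widespread. Neurons fire at high energy cost, and exchange of lactate between glial cells and neurons has long been discussed in the nervous system.

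Levels are given as TPM, the count divided by gene length and scaled to an equal total per library. Here the sum ran over nuclear protein-coding genes, since *Gm23935*, a gene of 57 bases, took between 8.17% and 68.1% of an all-gene TPM sum and would have moved every other value. Libraries held 10368240 to 37287489 counts on genes. A count of 3, the limit that a count of 0 allows, equalled 0.0805 to 0.289 CPM (a count scaled by the library's total). Counts from 1 to 20 were even in 64.3% to 75.0% of cases, so both mates of a pair may have been counted, and limits from a count of 0 would then be 2 times as high. The lowest count of any of the 10 genes was 16, for *Aldoc* in a glial library. Mitochondrial genes took 9.57% to 24.2% of the counts in SGN libraries, 9.54% to 10.6% in HC libraries and 10.3% to 13.5% in glial libraries. The labelled cell types carried their own markers. The summed TPM of 7 SGN markers was 4989 to 19143 in SGN libraries, 484 to 585 in HC libraries and 178 to 1588 in glial libraries. That of 5 HC markers was 5420 to 5926 in HC libraries against at most 490 in any SGN library. That of 5 glial markers was 30974 to 41748 in glial libraries and 26.8 to 3446 in SGN libraries, highest at P8. Erythrocyte markers summed to 826 TPM in E15.5 replicate 1, where no other library exceeded 131. *Hk1*, *Pfkm*, *Aldoa* and *Gapdh* overlap genes on the opposite strand (*Hk1os*, *Senp1*, *Fam57b* and *Iffo1*), *Pfkm* also *Gm26513* on its own strand. The strand setting of the counting was not given in the sources used here, so reads of such pairs may not be separated. In these pooled cells, fewer cells of a type and less RNA per cell cannot be told apart.

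The 10 genes took a larger share of the counts in older SGNs. In SGN libraries they took 0.161% to 0.221% of all counts at E15.5 and 0.300% to 0.377% at P1. The share was 0.493% to 0.583% at P8, 0.620% to 0.841% at P14 and 0.650% to 0.693% at P30. No age overlapped its neighbor up to P14, and the P30 libraries fell inside the range of P14. HC libraries gave 0.184% to 0.222% and glial libraries 0.101% to 0.163%. Both lay below every P1 library.

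**Figure D1:**
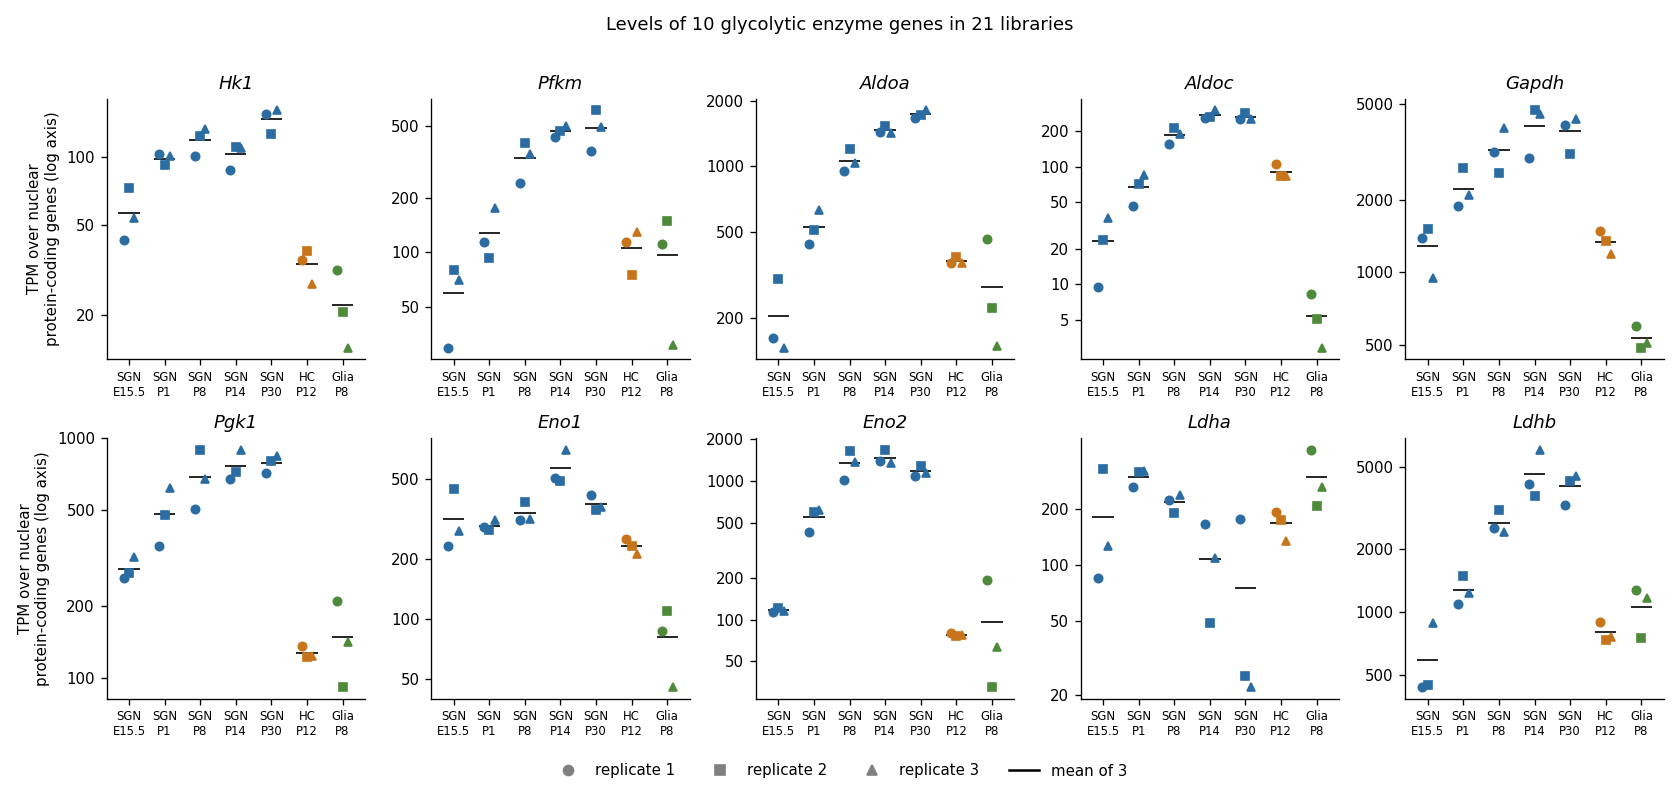
Each panel plots 1 gene, with its level in TPM over nuclear protein-coding genes on a log axis against the 7 groups; points are libraries and bars the mean of 3. Every P14 library lies above every E15.5 library in all panels but *Ldha*, and the share of genes in the whole table with such a gap was not counted. *Ldha* spreads downward at P14 and P30 to as low as 22.2 TPM. The orange HC points and green glial points lie below P8 SGNs in all panels but *Ldha*.

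Changes across age were tested with limma-voom on the 15 SGN libraries and 15113 genes, and a gene was called at a Benjamini-Hochberg adjusted p under 0.05. From E15.5 to P30, 9 of the 10 genes rose and none fell, where 22.1% of all genes rose and 19.3% fell. The median log2 change of the 10 was 2.64, against -0.0064 for all genes. An F test over all 5 ages called all 10, against 37.8% of genes, and 9 or 10 when any 1 library was left out. By limma-voom, calls of the 10 between neighboring ages were limited to the first 2 steps. The median log2 change of the 10 was 1.14, 0.95, 0.52 and -0.048 over the 4 steps in order of age. That of all genes was 0.070, -0.0090, -0.022 and -0.011. From E15.5 to P1, 7 of the 10 rose, where 6.79% of all genes did. From P1 to P8, 6 rose and none fell, against 6.59% and 4.56% of all genes. From P8 to P14, 0 were called and 0.45% of all genes rose, and 3 of the 10 had an adjusted p under 0.1. From P14 to P30, 0 were called and 0.086% of all genes changed in either direction. At these later steps 121 and 13 genes passed in the whole table (1735 and 990 at an unadjusted p under 0.05), and edgeR called 43 and 9. DESeq2 called 315 and 119 genes, *Eno1* and *Ldhb* among the rises from P8 to P14. Without P1 replicate 2, 3 of the 10 were called from E15.5 to P1, and the calls in the whole table went from 1678 to 826. The calls of *Aldoc* (1.57), *Gapdh* (0.75), *Ldhb* (1.13) and *Pgk1* (0.78) were lost at those log2 changes. Scaling by library size only moved the median log2 change of all genes from E15.5 to P30 to -0.49, with 13.8% of genes higher and 30.5% lower, and called 8 of the 10, all higher. Under that scaling 4.91% of genes rose and 6.03% fell from E15.5 to P1, 4.02% and 7.85% from P1 to P8 and 0.271% and 0.49% from P8 to P14, and 6, 5 and 0 of the 10 rose. The mitochondrial share moved with age as well, from at most 13.5% at E15.5 to at least 16.4% in every later SGN library. With mitochondrial genes removed, the counts called were as above but for 5 from P1 to P8, where 1657 of all 15578 genes tested passed.

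**Figure D2:**
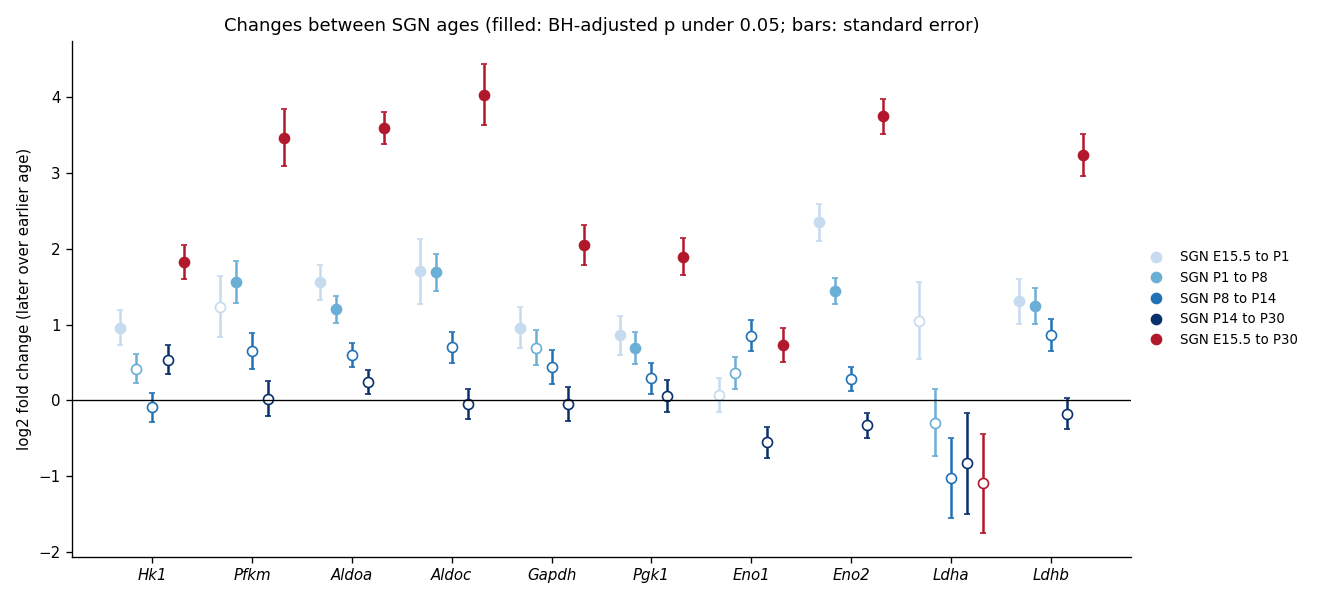
Log2 fold change of each gene (later over earlier age, limma-voom, bars show the standard error) for the 4 steps between neighboring ages in blue and for E15.5 to P30 in red, with filled points for an adjusted p under 0.05. Filled points appear in the 2 earliest steps, no gene is filled from P8 to P14 or from P14 to P30, and *Ldha* is the gene whose red point lies below 0, at -1.10.

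The entry steps rose by different amounts. *Hk1* (chromosome 10, 62268855 to 62379908, minus strand, GRCm38) encodes the hexokinase that sits on mitochondria in brain. It had 43.0, 73.1 and 53.5 TPM at E15.5 and 102, 91.4 and 101 TPM at P1, with no overlap between these ages. By P30 it stood at 155, 126 and 160 TPM. The log2 change was 0.96 ± 0.23 (SE) from E15.5 to P1 (adjusted p = 0.013) and 1.82 ± 0.22 to P30 (adjusted p = 8.1e-06). *Hk1* took 81.4% ± 12.7 of the summed TPM of 5 hexokinase genes at E15.5 (SD, n = 3) and at least 90.9% in every SGN library from P1 on.

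*Pfkm* (chromosome 15, 98092589 to 98132451, plus strand) encodes the muscle-type phosphofructokinase and had 29.7, 79.6 and 70.1 TPM at E15.5. It reached 114, 93.1 and 177 TPM at P1, where the change of 1.23 ± 0.40 missed the threshold (adjusted p = 0.057), and 242, 403 and 350 TPM at P8. The step from P1 to P8 passed with 1.56 ± 0.27 (adjusted p = 0.0016). *Pfkp*, the platelet-type enzyme, went the other way, with 255 ± 33.1 TPM at E15.5, 299 ± 57.5 at P1, 132 ± 30.4 at P8 and 83.1 ± 8.80 at P30 (SD, n = 3). Its fall from P1 to P8 was -1.03 ± 0.16 (adjusted p = 0.00069). *Pfkm* made up 16.9% ± 7.08 of phosphofructokinase TPM at E15.5 and 27.8% ± 3.63 at P1. From P8 on it made up more of this length-scaled TPM than *Pfkp*, with 67.2% ± 1.52 at that age, 75.6% ± 0.28 at P14 and 80.9% ± 3.63 by P30. The gene lengths used were 2957 bases for *Pfkm* and 13401 for *Pfkp*. The shares, and the age at which *Pfkm* passed *Pfkp*, depend on these unequal lengths. The summed TPM of the 3 phosphofructokinase genes was 350 ± 40.8 at E15.5 and 604 ± 128 at P30.

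Aldolase rose through its widespread and its brain form alike. *Aldoa* (chromosome 7, 126795234 to 126800751, minus strand) had 162, 302 and 146 TPM at E15.5, 436, 507 and 632 at P1, and 949, 1205 and 1039 at P8. At P14 it had 1445, 1538 and 1430 TPM and at P30 1667, 1736 and 1815 TPM. No neighboring ages overlapped, although the change from P8 to P14 of 0.59 ± 0.16 was not called (adjusted p = 0.098). Over the whole course it rose by 3.59 ± 0.22 on the log2 scale (adjusted p = 5.3e-09). *Aldoc* (chromosome 11, 78322968 to 78327781, plus strand) climbed from 9.51, 24.0 and 36.7 TPM at E15.5 through 46.1, 71.2 and 84.9 at P1 and 154, 211 and 190 at P8 to 258, 266 and 300 at P14. It had 254, 287 and 252 TPM at P30. Its log2 change from E15.5 to P30 was 4.03 ± 0.40 (adjusted p = 1.1e-06), the largest point estimate of the 10. *Aldoc* remained the smaller partner throughout, with 10.6% to 15.7% of the summed aldolase TPM on average at each age.

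*Gapdh* (chromosome 6, 125161715 to 125166467, minus strand), whose enzyme makes the NADH of glycolysis and which is widely used as a constant reference gene, was not constant here. It had 1386, 1519 and 949 TPM at E15.5, 1892, 2707 and 2089 at P1, and 4101, 3118 and 4346 at P30. The change was 0.96 ± 0.27 from E15.5 to P1 (adjusted p = 0.033, not called without E15.5 replicate 3 or P1 replicate 2 or 3) and 2.05 ± 0.26 to P30 (adjusted p = 1.4e-05). *Pgk1* (chromosome X, 106187100 to 106203699, plus strand) encodes the first enzyme of glycolysis that returns ATP and rose from 260, 273 and 319 TPM at E15.5 to 718, 805 and 839 TPM at P30, by 1.90 ± 0.25 (adjusted p = 1.7e-05). Its single steps to P1 (0.86 ± 0.26, adjusted p = 0.041) and to P8 (0.69 ± 0.21, adjusted p = 0.047) lay near the threshold. The step to P1 was not called without E15.5 replicate 1, 2 or 3 or P1 replicate 2 or 3, and the step to P8 was not called without P1 replicate 1 or 2 or P8 replicate 2 or 3. *Gapdh* has 80 near-identical copies in the genome, 75 of them pseudogenes, which together took 12.3% to 17.7% of the counts of gene and copies in a library. For *Pgk1* the 2 copies took 1.47% to 5.47%. Adding the copies left *Gapdh* and *Pgk1* called from E15.5 to P30.

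The enolase genes parted. They are shown with the lactate dehydrogenase genes by the promoter window of RefSeq (GRCm38.p6, 250 bases before to 50 after a start of transcription), because within both pairs the genes moved unequally. Capitals mark ACGTG or GCGTG on either strand, the core letters at which hypoxia-inducible factor (HIF), a known activator of glycolytic genes, can bind. Such letters stood in 43.8% of all 32851 windows and in 7 of the 10 windows of the genes described here. The windows are chr4:150236458-150236757 (plus strand) for *Eno1*, 244 bases from the start of its principal GENCODE transcript, and chr6:124769624-124769923 (minus strand) for *Eno2*. Those of lactate dehydrogenase are chr7:46845554-46845853 (plus strand) for *Ldha* and chr6:142507908-142508207 (minus strand) for *Ldhb*.
Eno1: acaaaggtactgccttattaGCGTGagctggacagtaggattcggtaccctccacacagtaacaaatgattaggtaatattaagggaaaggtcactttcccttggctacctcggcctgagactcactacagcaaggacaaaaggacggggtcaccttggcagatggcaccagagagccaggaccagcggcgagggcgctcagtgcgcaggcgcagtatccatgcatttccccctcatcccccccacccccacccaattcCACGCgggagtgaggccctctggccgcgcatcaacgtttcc
Eno2: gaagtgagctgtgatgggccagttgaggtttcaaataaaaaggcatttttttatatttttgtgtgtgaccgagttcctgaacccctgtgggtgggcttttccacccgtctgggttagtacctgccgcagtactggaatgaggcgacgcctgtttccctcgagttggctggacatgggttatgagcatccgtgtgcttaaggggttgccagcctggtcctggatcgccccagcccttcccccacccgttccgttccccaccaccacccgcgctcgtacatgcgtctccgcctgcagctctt
Ldha: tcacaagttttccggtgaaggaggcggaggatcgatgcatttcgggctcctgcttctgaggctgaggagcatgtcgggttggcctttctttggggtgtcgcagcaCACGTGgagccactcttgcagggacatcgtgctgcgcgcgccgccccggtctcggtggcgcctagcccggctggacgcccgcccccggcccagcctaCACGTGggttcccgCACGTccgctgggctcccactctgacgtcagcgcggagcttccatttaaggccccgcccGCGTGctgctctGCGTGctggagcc
Ldhb: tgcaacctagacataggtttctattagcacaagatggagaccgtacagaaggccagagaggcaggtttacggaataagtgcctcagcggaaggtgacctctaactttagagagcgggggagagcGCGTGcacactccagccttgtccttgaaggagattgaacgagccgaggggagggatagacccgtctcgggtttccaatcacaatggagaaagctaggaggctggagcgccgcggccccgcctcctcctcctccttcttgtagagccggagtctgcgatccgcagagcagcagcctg
The *Eno1* window holds 2 matches, the *Eno2* window 0, the *Ldha* window 7 and the *Ldhb* window 1. In *Ldha*, 4 of the 7 lie in 2 copies of CACGTG, a palindrome that reads as ACGTG on both strands and is present in 7.15% of all windows. The window also holds 3 copies of GGGCGG on either strand, the letters bound by Sp1, which 35.7% of windows hold. *Pfkm* has 3 matches, *Gapdh* 3, *Pgk1* 2, *Aldoc* 1, and *Hk1* and *Aldoa* have 0. A match is a run of letters and not a shown binding site.

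*Eno2* (chromosome 6, 124760053 to 124769673, minus strand) had 114, 122 and 116 TPM at E15.5 and 431, 602 and 622 TPM at P1. At P8 it had 1011, 1649 and 1361 TPM, at P14 1402, 1685 and 1337 TPM and at P30 1089, 1278 and 1149 TPM. It rose by 2.35 ± 0.24 from E15.5 to P1 (adjusted p = 2.9e-05) and by 1.44 ± 0.17 from P1 to P8 (adjusted p = 5.9e-05). *Eno1* (chromosome 4, 150236721 to 150248879, plus strand) stayed in 1 range for longer, with 232, 446 and 276 TPM at E15.5, 288, 279 and 313 at P1, and 311, 386 and 315 at P8. It was highest at P14 with 511, 494 and 706 TPM and had 420, 351 and 363 TPM at P30. The *Eno1* change from P8 to P14 of 0.86 ± 0.20 just missed the threshold (adjusted p = 0.055), and its change from E15.5 to P30 was 0.73 ± 0.22 (adjusted p = 0.014), with overlapping TPM ranges. The latter was not called without E15.5 replicate 1 or 3 or P30 replicate 1. It was 0.25 with scaling by library size only (adjusted p = 0.36). Near-identical copies took 5.16% to 42.6% of the counts of *Eno1* and its 3 copies, so its level is less certain than that of *Eno2*, which has none. With the copies added, the *Eno1* change from E15.5 to P30 was larger, at 1.08 (limma-voom, adjusted p = 0.00021). That from P8 to P14 was then 0.82 and called (adjusted p = 0.028).

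The enolase ratio turned over between E15.5 and P1. Per library, *Eno2* over *Eno1* was 0.490, 0.275 and 0.419 at E15.5, all below 1, and 1.50, 2.16 and 1.99 at P1, all above it. It was 3.25, 4.28 and 4.32 at P8, 2.75, 3.41 and 1.89 at P14 and 2.60, 3.64 and 3.16 at P30. With the copies of *Eno1* added, the mean log2 ratio was -1.71 at E15.5, 0.44 at P1 and 0.95 at P30. Without them it was -1.38, 0.89 and 1.63. On the log2 scale, P14 and P30 together exceeded E15.5 and P1 together by 1.75 (6 libraries against 6, two-sided exact permutation test, p = 0.0065, adjusted p over the 9 ratio tests = 0.019). The ranges touched, since P1 replicates 2 and 3 lay above P14 replicate 3. The test joins ages that differ, with mean log2 ratios of -1.38 at E15.5 and 0.89 at P1. It leaves out P8, the age with the highest mean (1.97). *Eno2* made up 24.3% ± 5.62 of the TPM of 3 enolase genes at E15.5 and 77.2% ± 3.06 at P8. *Eno3*, the muscle enolase, was 68.6 ± 29.8 TPM at E15.5 and 14.1 ± 6.37 TPM at P30 (log2 change -1.88 ± 0.63, adjusted p = 0.024).

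*Ldhb* (chromosome 6, 142490249 to 142507957, minus strand), whose heart-type subunit predominates in oxidative tissues, rose in step with the glycolytic enzymes. It had 437, 446 and 885 TPM at E15.5, 1098, 1486 and 1229 at P1, and 2522, 3078 and 2428 at P8. At P14 it had 4123, 3597 and 6045 TPM and at P30 3254, 4280 and 4512 TPM. The change from E15.5 to P30 was 3.24 ± 0.28 (adjusted p = 2.2e-07), and from P8 to P14 it was 0.86 ± 0.21 (adjusted p = 0.071). With *Gapdh* it was the most abundant of the 10 per length at P14 and P30.

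*Ldha* (chromosome 7, 46841475 to 46855627, plus strand), whose muscle-type subunit predominates in tissues that release lactate, was the exception. It had 84.7, 329 and 127 TPM at E15.5, 261, 316 and 318 at P1, and 223, 191 and 237 at P8. At P14 the libraries spread over 165, 48.6 and 110 TPM, and at P30 over 178, 25.3 and 22.2 TPM. Every P14 and P30 library lay below every P8 library, and every P8 library below every P1 library, while E15.5 spread from 84.7 to 329. No single step was called, nor was the change from E15.5 to P30 (-1.10 ± 0.66, adjusted p = 0.19), but the F test over the ages passed (adjusted p = 0.035). That adjusted p was the highest of the 10 genes, and the F test called 9 or 10 of them when any 1 library was left out. Single libraries moved the change from E15.5 to P30 both ways. It was -2.31 without P30 replicate 1 (adjusted p = 0.022) and -0.52 without E15.5 replicate 2 (adjusted p = 0.57). Without P30 replicate 2 or 3 it was -0.63 and -0.61, not called.

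Marker RNA of other cells differed between the same libraries. The summed TPM of the 5 glial markers, none of them at 0 in P30 replicate 1, was 366 in that library, 124 in replicate 2 and 26.8 in replicate 3, where *Foxd3* was at 0 in replicate 2. The P30 replicate 1 sum is 1.05% of the mean glial library. At the mean *Ldha* level of glial cells, that share carries 3.11 TPM of the 178 TPM measured. This takes glial cells at P30 to have the marker and *Ldha* levels of P8, the age at which they were sequenced. At P8, where the glial sums were 2536 to 3446, the share was 7.29% to 9.91% and carries 21.5 to 29.2 TPM of 191 to 237. P30 replicate 1 also had 79.3 TPM of 5 erythrocyte markers, against 6.53 and 13.0, and 65.7 TPM of 4 fibroblast markers, against 1.25 and 0.534. The part of those cells in its *Ldha* level was not tested.

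**Figure D3:**
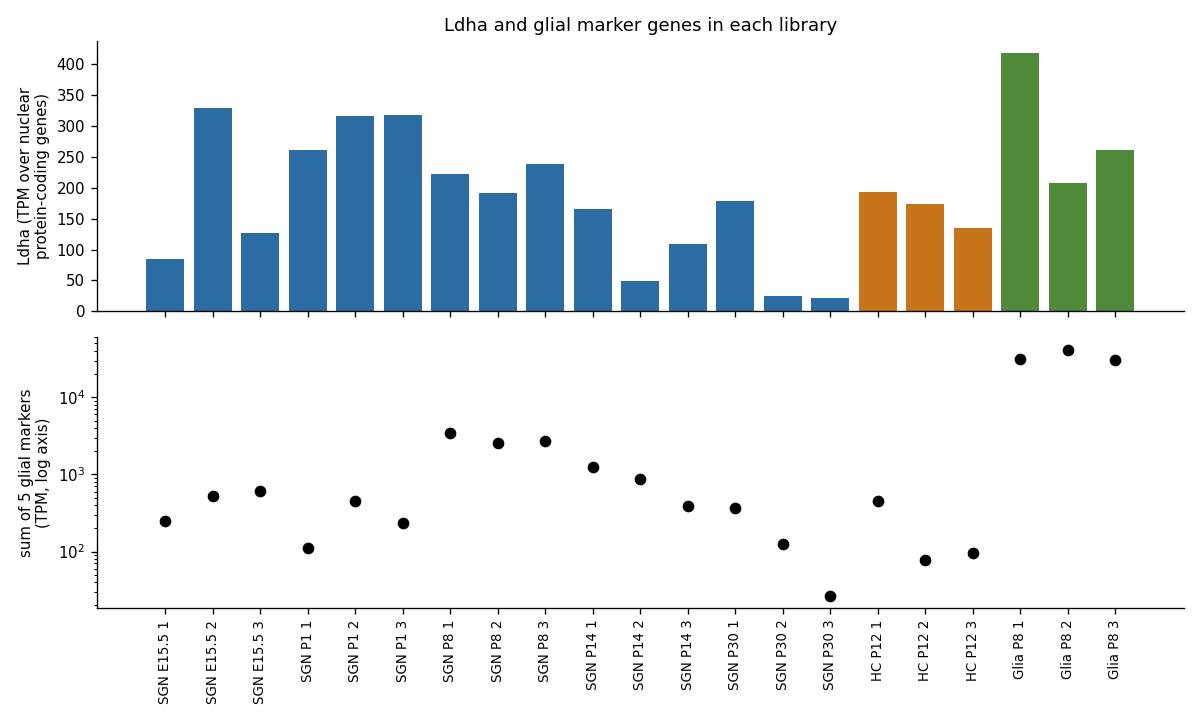
The upper panel gives *Ldha* in TPM over nuclear protein-coding genes in each of the 21 libraries as bars from 0, the lower panel the summed TPM of 5 glial markers in the same libraries on a log axis. P30 replicates 2 and 3 have the lowest *Ldha* of all (25.3 and 22.2 TPM) and P30 replicate 1 has 178 TPM. The glial sums of P30 SGNs, 26.8 to 366, are far below the 30974 to 41748 of glial libraries.

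The ratio of the subunits separated early from late SGNs. *Ldhb* over *Ldha* was 5.16, 1.36 and 6.96 at E15.5 and 4.21, 4.70 and 3.87 at P1. It was 11.3, 16.1 and 10.2 at P8, 25.0, 74.0 and 55.2 at P14 and 18.3, 169 and 203 at P30. Each of the 6 late libraries (P14 and P30) had a higher ratio than each of the 6 early ones (E15.5 and P1), with P8 left out. The mean log2 ratios were 5.98 ± 1.41 late and 1.98 ± 0.81 early (SD, n = 6). The difference was 4.01, with an exact permutation p = 0.0022, the smallest that 6 against 6 allows (adjusted p over the 9 ratio tests = 0.011). *Ldha* made up 19.1% ± 1.50 of lactate dehydrogenase TPM at P1 and 7.62% ± 1.59 at P8 (SD, n = 3). For aldolase, the log2 ratio of *Aldoc* over *Aldoa* differed by 0.54 between late and early SGNs and overlapped (exact permutation p = 0.11, adjusted p = 0.14). Without E15.5 replicate 3, the library with the highest early ratio, that difference was 0.77 (adjusted p = 0.019).

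**Figure D4:**
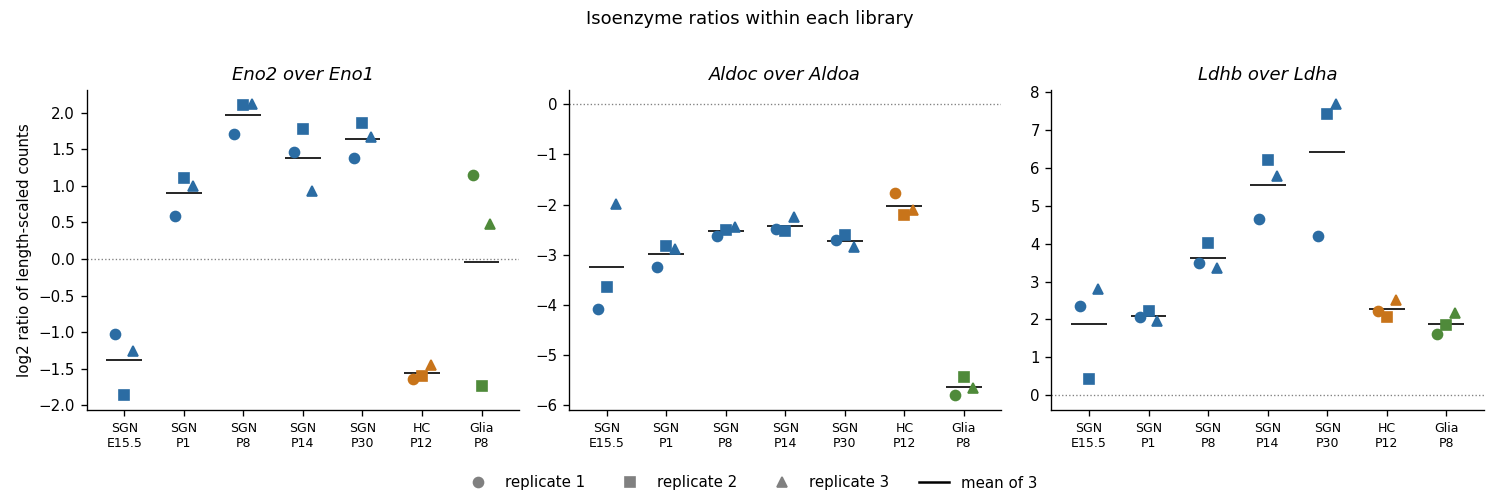
Log2 ratio of length-scaled counts within each library for 3 pairs of isoenzyme genes, with points for libraries and bars for the mean of 3. *Eno2* over *Eno1* crosses 0 between E15.5 and P1, *Aldoc* over *Aldoa* is lowest in glial cells (mean -5.65), and *Ldhb* over *Ldha* climbs from 1.87 at E15.5 to 6.42 at P30 with P30 replicate 1 apart from the others.

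Cell types were compared in a fit of all 21 libraries and 17531 genes, with SGNs of the nearest ages. Against glial cells at the same age (P8), 9 of the 10 genes were higher in SGNs and none lower, where 24.5% of all genes were higher and 18.5% lower. Against HCs at P12, 9 of the 10 were higher in SGNs at P8 and P14 and none lower, where 24.5% of all genes were higher and 26.4% lower. By library size only, 15.1% of all genes were higher and 39.7% lower than in HCs (median log2 difference -0.68), and 9 of the 10 were again higher. In both comparisons the 9 lay above the other cell type in every library, as 20.4% of all genes did against glial cells and 15.7% against HCs, and *Ldha* was the gene not called. Between HCs and glial cells, 2 were higher in HCs and 1 lower, where 25.1% and 19.7% of all genes were. By library size only these became 32.3% and 12.7% of all genes, with 3 of the 10 higher in HCs and 0 lower. The median log2 difference of all genes was 0.22 for SGNs over glial cells and 0.14 for HCs over glial cells, against 2.23 and -0.031 for the 10.

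The brain forms had the largest differences from glial cells by point estimate. *Aldoc* had 8.24, 5.04 and 2.90 TPM in glial cells, far under the 154 to 211 TPM of P8 SGNs, with a log2 difference of 5.20 ± 0.61 (adjusted p = 1.6e-06). *Eno2* had 192, 32.9 and 63.5 TPM in glial cells and differed by 4.04 ± 0.41 (adjusted p = 3.2e-07). The summed SGN markers were 1588, 274 and 178 TPM in the same 3 glial libraries, or 10.7%, 1.84% and 1.20% of the mean P8 SGN library. At the mean P8 SGN level of *Eno2*, those shares carry 143, 24.7 and 16.0 TPM. For *Aldoc* the same shares carry 19.7, 3.41 and 2.21 TPM, which in glial replicate 1 is above the 8.24 TPM measured. The part of SGN RNA in the glial levels was not tested. *Gapdh* (598, 486 and 510 TPM), *Hk1* (31.7, 20.7 and 14.4 TPM), *Pgk1* (209, 91.6 and 141 TPM) and *Eno1* (87.1, 110 and 45.5 TPM) were lower in glial cells than in P8 SGNs by log2 differences of 2.19 to 2.64. *Aldoa* (464, 221 and 148 TPM) differed by 2.06 ± 0.27 and *Pfkm* (112, 149 and 30.6 TPM) by 1.99 ± 0.43. The smallest called difference was that of *Ldhb*, with 1269, 746 and 1169 TPM in glial cells (1.42 ± 0.28, adjusted p = 0.00037). *Ldha* had 417, 207 and 261 TPM in glial cells against 191 to 237 TPM in P8 SGNs and was not called (-0.38 ± 0.44, adjusted p = 0.51). Against the mean of all 5 SGN ages in place of P8, its difference was called (-1.04, adjusted p = 0.027). The *Gapdh* call was lost with no low-count filter (2.71, adjusted p = 0.064).

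HCs lay below P8 and P14 SGNs for all genes but *Ldha*. *Eno2* had 80.5, 76.2 and 77.4 TPM there and was 4.68 ± 0.37 lower on the log2 scale than in P8 and P14 SGNs (adjusted p = 2.6e-09). *Pgk1* had 136, 122 and 123 TPM (3.02 ± 0.31, adjusted p = 9.1e-08) and *Ldhb* 899, 730 and 762 TPM (2.65 ± 0.27, adjusted p = 5.8e-08). *Hk1* (35.1, 38.5 and 27.5 TPM), *Pfkm* (115, 74.7 and 130 TPM), *Aldoa* (358, 381 and 360 TPM), *Gapdh* (1481, 1356 and 1192 TPM), *Aldoc* (104, 82.7 and 82.9 TPM) and *Eno1* (251, 231 and 210 TPM) differed by 1.45 to 2.43. *Ldha* had 193, 174 and 135 TPM in HCs. Its direction depended on the scale and was not called: the fitted difference of SGNs over HCs was 0.36 ± 0.45 (adjusted p = 0.52), and -0.32 by library size only, while mean TPM was 162 in SGNs and 167 in HCs. Against glial cells, HCs had more *Aldoc* (3.68 ± 0.64, adjusted p = 9.9e-05) and more *Eno1* (1.16 ± 0.35, adjusted p = 0.011). HCs had less *Ldha* (-1.25 ± 0.50, adjusted p = 0.048), a call lost when HC replicate 1, 2 or 3 or glial replicate 1 or 3 was left out and not made by edgeR or DESeq2. *Ldhb* was not called (-0.82 ± 0.35, adjusted p = 0.063) but passed without glial replicate 2 (adjusted p = 0.027).

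**Figure D5:**
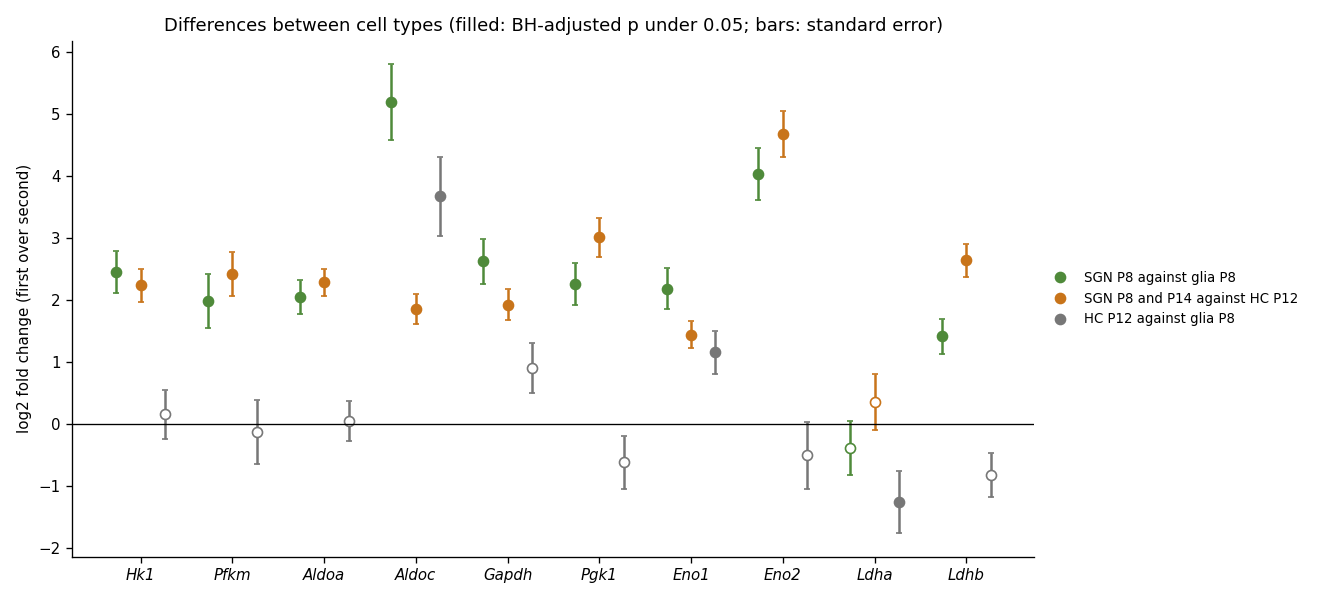
Log2 fold change of each gene between cell types (limma-voom, bars show the standard error), with P8 SGNs over glial cells in green, P8 and P14 SGNs over HCs in orange and HCs over glial cells in grey, and filled points for an adjusted p under 0.05. Green and orange points are filled and above 0 for all genes but *Ldha*, and 3 grey points are filled, for *Aldoc* (3.68), *Eno1* (1.16) and *Ldha* (-1.25).

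Isoenzyme ratios also differed between cell types. The log2 ratio of *Eno2* over *Eno1* was 2.46 higher over all SGN libraries than in HCs (15 against 3, exact permutation p = 0.015, adjusted p over the 9 ratio tests = 0.026), where HC libraries lay at the level of E15.5 SGNs (-1.56 against -1.38). With the copies of *Eno1* added the difference was 2.06 (adjusted p = 0.053). Against glial cells the difference was 0.94 (exact permutation p = 0.26), and the glial libraries scattered between -1.74 and 1.14. The ratio of *Aldoc* over *Aldoa* was 2.87 higher in SGNs than in glial cells (exact permutation p = 0.0025, the smallest that 15 against 3 allows, adjusted p = 0.011), with no overlap. It was 0.75 lower in SGNs than in HCs (adjusted p = 0.022), and E15.5 replicate 3 overlapped the HCs. *Ldhb* over *Ldha* did not pass against HCs (1.65, adjusted p = 0.21) or glial cells (2.04, adjusted p = 0.12). The SGN side of these tests joins all 5 ages, between which the ratios differ. Against glial cells the test of *Ldhb* over *Ldha* passed without E15.5 replicate 2 (2.28, adjusted p = 0.019). The tests of *Eno2* and of *Aldoc* against HCs did not pass without HC replicate 1, 2 or 3.

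The steps that none of the 10 genes covers were measured by *Gpi1*, *Tpi1*, *Pgam1* and *Pkm*, which belong to a list of 19 other enzymes of the pathway. Of the 13 list members tested across ages, 0 passed from E15.5 to P1, while 2 rose and 1 fell between P1 and P8. Of all 15113 genes, 1678 passed at the first of these steps, and 6.59% rose and 4.56% fell at the next. From P8 to P14 1 rose, as did 0.45% of all genes. Over the whole course (E15.5 to P30) 5 rose and 2 fell, where 22.1% of all genes rose and 19.3% fell. *Pkm*, whose pyruvate kinase makes the last ATP, went from 319 ± 58.7 TPM at E15.5 to 1354 ± 150 TPM at P30 (log2 change 2.51 ± 0.19, adjusted p = 5.5e-08). It was the list member that rose from P8 to P14 (0.89 ± 0.17, adjusted p = 0.022). *Pgam1*, the phosphoglycerate mutase, rose by 1.73 ± 0.19 over the whole course (adjusted p = 3.2e-06) and *Tpi1*, the triose-phosphate isomerase, by 1.61 ± 0.30 (adjusted p = 0.00051). *Gpi1*, the glucose-phosphate isomerase, moved least, from 170 ± 9.82 to 197 ± 16.4 TPM (0.65 ± 0.19, adjusted p = 0.013). *Ldhd*, the dehydrogenase of D-lactate, rose by 2.62 ± 0.70 (adjusted p = 0.0072) with overlapping ranges. In SGNs, 6 of 14 were higher than in glial cells and 0 lower, where 24.5% of all genes were higher and 18.5% lower. Against HCs 5 were higher and 2 lower, where 24.5% and 26.4% of all genes were. HCs exceeded glial cells in 3 and were below them in 1, where 25.1% of all genes were higher and 19.7% lower. *Gpi1*, *Tpi1*, *Pgam1* and *Pkm* were all higher in SGNs than in either cell type, by 1.47 to 3.35 on the log2 scale.

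Genes of pyruvate entry into mitochondria also rose with SGN age. The list holds the carriers, the pyruvate dehydrogenase complex and its kinases and phosphatases. Of its 11 members tested, 3 rose from E15.5 to P1, 6 rose from P1 to P8, 0 passed at either later step, and 9 rose and 1 fell from E15.5 to P30 (median log2 change 1.84). At the first 2 steps 6.79% and 6.59% of all genes rose. From E15.5 to P30 22.1% of all genes rose and 19.3% fell. *Dlat*, the E2 subunit of the complex, had 70.9 ± 3.73 TPM at E15.5, 191 ± 45.4 at P1, 390 ± 100 at P8 and 343 ± 43.1 at P30. It rose by 1.53 ± 0.28 to P1 (adjusted p = 0.0031), by 1.20 ± 0.21 to P8 (adjusted p = 0.0013) and by 2.69 ± 0.27 overall (adjusted p = 1.2e-06). *Pdha1*, the E1 alpha subunit, rose by 1.67 ± 0.36 to P1 and *Dld*, the E3 subunit, by 0.79 ± 0.25 (adjusted p = 0.048), while *Pdhb*, the E1 beta subunit, rose by 1.25 ± 0.21 from P1 to P8. SGNs exceeded glial cells in 8 of 12 with 0 lower, where 24.5% of all genes were higher and 18.5% lower. They exceeded HCs in 8 with 3 lower, where 24.5% and 26.4% of all genes were. *Pdp1*, the phosphatase that activates the complex, was 3.07 ± 0.65 higher than in glial cells and 4.10 ± 0.64 higher than in HCs. HCs exceeded glial cells in 3 of 12, near the 25.1% of all genes that were higher, with 0 lower against 19.7% of all genes.

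Transporters moved in part. Of 7 list members tested, 0 passed from E15.5 to P1, 1 rose from P1 to P8, 0 passed at the later steps, and 4 rose from E15.5 to P30. At the first step 1678 of all 15113 genes passed. From P1 to P8 6.59% of all genes rose, and from E15.5 to P30 22.1% did. *Slc2a3*, the neuronal glucose transporter GLUT3, went from 41.1 ± 30.8 to 121 ± 28.7 TPM (2.13 ± 0.44, adjusted p = 0.0011). *Slc2a1*, which encodes GLUT1, differed by 0.79 ± 0.63 over the same span (adjusted p = 0.33) and was not called in any comparison between ages or cell types. *Slc2a4*, the insulin-responsive GLUT4, went from 10.8 ± 4.25 to 73.6 ± 31.1 TPM (3.12 ± 0.79, adjusted p = 0.005) and had 0 counts in all 3 HC libraries, which allows up to 0.167 to 0.246 CPM, or 2 times that if both mates were counted. *Slc16a1*, the lactate and pyruvate transporter MCT1, was the gene that rose from P1 to P8, from 25.4 ± 5.48 to 65.3 ± 11.5 TPM (1.54 ± 0.32, adjusted p = 0.0052). Glial marker sums of the SGN libraries were 113 to 456 TPM at P1 and 2536 to 3446 TPM at P8. The part of glial RNA in the rise of *Slc16a1* was not tested. *Slc16a7*, which encodes the neuronal MCT2, had 6.81 ± 4.92 TPM at E15.5, 17.3 ± 4.72 at P1 and 7.89 ± 3.73 at P30 and passed the F test (adjusted p = 0.04) but no pairwise test between ages. Against glial cells, SGNs were higher in 3 of 8 and lower in 1, where 24.5% of all genes were higher and 18.5% lower. *Slc2a3* differed by 4.82 ± 0.90 (adjusted p = 0.00022). Against HCs, SGNs were higher in 4 and lower in 1, where 24.5% of all genes were higher and 26.4% lower. HCs were lower than glial cells in 3, as were 19.7% of all genes.

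None of 7 pentose phosphate genes was called at any of the 4 steps, from E15.5 to P30, or by the F test (limma-voom), and glial cells exceeded P8 SGNs in 3 of them. The F test called 37.8% of all genes. Against HCs, SGNs were higher in 1 and lower in 1, and HCs were below glial cells in 2. For all genes, 24.5% were higher and 18.5% lower in P8 SGNs than in glial cells. Compared with HCs, 24.5% were higher and 26.4% lower in SGNs. In HCs, 25.1% were higher and 19.7% lower than in glial cells. The same shares stand beside the cell type counts of the next list. Of the 4 tested genes for the PFK-2 enzymes and TIGAR, which set or remove the activator of phosphofructokinase, 2 rose from E15.5 to P30 and 0 passed at any single step. Over the same span 22.1% of all genes rose, and 1678 of 15113 passed at the step from E15.5 to P1. *Tigar* was 3.14 ± 0.59 higher in P8 SGNs than in glial cells (adjusted p = 0.00026), and of 5 genes tested 1 was higher and 1 lower. Against HCs, 2 were higher and 3 lower in SGNs, and HCs exceeded glial cells in 3 and were below them in 1. That 1 was *Pfkfb3*, with 49.4 ± 43.6 TPM in glial cells and 1.90 ± 1.62 TPM in HCs (-5.06 ± 1.00, adjusted p = 0.00038).

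The hypoxia response list, which holds HIF targets outside glycolysis, *Hif1a* and its hydroxylases, had 8 members tested. Of these, 0 passed from E15.5 to P1, 1 rose from P1 to P8, 0 passed at the later steps, and 3 rose and 1 fell from E15.5 to P30, with a median log2 change of 0.13. Of all genes, 22.1% rose and 19.3% fell over that span, and 6.59% rose from P1 to P8. From E15.5 to P1, 1678 of all 15113 genes passed. The rise to P8 was that of *Ndrg1*, from 5.46 ± 0.66 to 55.8 ± 4.21 TPM (3.49 ± 0.54, adjusted p = 0.00054). *Ndrg1* is also known from myelinating Schwann cells and had 282, 277 and 320 TPM in the glial libraries. In P8 SGNs, whose glial marker sums were the highest among SGNs, its log2 difference from glial cells was -2.30 ± 0.26 (adjusted p = 1.1e-06), and the part of glial RNA in its rise was not tested. In HCs it had 3.06, 0.560 and 0.290 TPM. *Bnip3*, which encodes a mitochondrial protein induced by HIF, was 2.65 ± 0.52 higher in P8 SGNs than in glial cells (adjusted p = 0.00036). Counts over the list were 1 higher and 4 lower for SGNs against glial cells, 2 higher and 3 lower against HCs, and 2 and 2 for HCs against glial cells. The shares of all genes were 24.5% and 18.5%, 24.5% and 26.4%, and 25.1% and 19.7% in the same order.

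Across the 15 SGN libraries, log2 levels of the 10 genes went together except for *Ldha*. Pearson's r was 0.65 to 0.98 over the 36 pairs without *Ldha*, with a median of 0.91, and -0.33 to -0.15 over the 9 pairs with it. These are descriptions over libraries that share 5 ages. Among the 9349 genes whose CPM passed 10 in each replicate of at least 1 age, the genes most like *Aldoa* were *Nos1* (r = 0.99), *Dnm1* (r = 0.99) and *Iqsec2* (r = 0.99), and among those most like *Eno2* were *Atp2b2* (r = 0.99) and *Dlat* (r = 0.99). *Ldhb* was most like *Ywhag*, *Rtn3* and *Hcn2*, with r = 0.99, 0.99 and 0.98. *Hk1* was most like *Ccdc85b* (r = 0.98), *Pfkm* like *Ttc39b* (r = 0.99), *Aldoc* like *Atp6v1c1* (r = 0.99), *Pgk1* like *Slc35g2* (r = 0.99) and *Eno1* like *Cisd1* (r = 0.91). For *Gapdh*, the closest 3 were *Gm12537*, *Gm14760* and *Gm13292*, which are among its own copies. *Ldha* had a looser neighborhood, led by *Fxyd7* (r = 0.92), *Fads3* (r = 0.91) and *Capn5* (r = 0.90).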

How the data were processed

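RNA of 21 libraries was amplified with the Ovation RNA-Seq V2 kit and sequenced. The deposited values were raw counts per gene, which the authors made by alignment to mm10 with STAR (2.4.0i in the processing notes) and counting with featureCounts on GENCODE vM15, with no normalization. Names and positions were taken from GENCODE vM21 (52403 of 52550 genes matched). Genes over 1 CPM in enough libraries were TMM-scaled and tested with limma-voom (limma 3.58.1, edgeR 4.0.16), with DESeq2 1.42.0 as an alternative; the code was tested on simulated data. Ratios within a library were compared by two-sided exact permutation tests. TPM was scaled to 21806 nuclear protein-coding genes, a choice made after seeing the data. Near-identical copies were found with blastn (95% identity over 100 bases). The genes and lists were chosen with earlier results of these data known. Of the lists, the text names the genes for uncovered steps, the main transporters and up to 3 of the largest called changes per comparison. *Pfkp*, *Eno3* and the isoenzyme shares were added after values were seen. Some genes that these rules name are not reported here.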

Additional observations from a re-analysis of the deposited data

How the results depend on the processing

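The following counts of called genes moved, all in the same direction as before. From E15.5 to P1, 4 genes passed with no low-count filter, 3 with sample quality weights, 4 in a fit of the 6 libraries alone and 4 at the study's fold thresholds, and leaving out 1 library gave 3 to 7. From P8 to P14, 2 passed with DESeq2, 2 with no low-count filter, 2 with a filter of CPM over 10, 3 with quality weights, 1 with copies added and 2 in the fit of all 21 libraries. With the replicate number as a block 2 passed there, and 232 of 15113 in the whole table. Same-numbered libraries did not deviate together (r over 0.1) in every pair of any comparison, so the numbers were not taken as pairs. They came nearest to it from P14 to P30, with r of 0.37, 0.22 and 0.082. There 5 of 6 libraries were closest to their own number in the other age. Between HCs and glial cells, 1 passed with quality weights and 1 at the study's thresholds. The causes were not tested.

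By library size only, *Eno1* from E15.5 to P30 was 0.25 and no longer called. Sign changes were limited to differences that were not called. *Eno1* from E15.5 to P1 was -0.021 with DESeq2, -0.080 by library size only and -0.11 to 0.36 leaving out 1 library. From P14 to P30, *Gapdh* was 0.12 with no low-count filter and 0.029 in the fit of all 21 libraries. *Ldha* of SGNs against HCs was -0.32 by library size only. *Pfkm* of HCs against glial cells was 0.023 with DESeq2 size factors and 0.37 by library size only. For *Hk1* from P8 to P14, leaving out 1 library gave -0.20 to 0.068. For the last step it gave -0.083 to 0.27 for *Pfkm*, -0.10 to 0.081 for *Aldoc*, -0.28 to 0.16 for *Gapdh*, -0.039 to 0.24 for *Pgk1* and -0.29 to 0.098 for *Ldhb*. For HCs against glial cells it gave -0.066 to 0.56 for *Hk1*, -0.67 to 0.24 for *Pfkm*, -0.26 to 0.64 for *Aldoa* and -1.03 to 0.41 for *Eno2*.

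For the ratios, *Eno2* over *Eno1* against HCs was 2.06 with copies added. Leaving out 1 library gave 2.37 to 2.66 for it, 0.35 to 0.77 for late against early *Aldoc* over *Aldoa*, -0.83 to -0.62 for that ratio against HCs and 1.77 to 2.28 for *Ldhb* over *Ldha* against glial cells. With the replicate block, the sign-flip test over 3 numbers cannot go below an exact p = 0.25. The differences of 1.75 and 2.46 for enolase, -0.75 and 2.87 for aldolase and 4.01 for lactate dehydrogenase all had that p.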
